A study of Mus musculus with 8 samples.

Results

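The subject here is Abca8a, a membrane transporter gene that was far higher in irr NSCs, together with 7 related genes of the ABCA subfamily, Abca8b, Abca9, Abca6, Abca5, Abca2, Abca3 and Abca7. The family was chosen by the large increase of Abca8a on these same arrays, so the values of the 8 genes are given as a description, with no p, and counts of calls among them support nothing. The 8 genes are read by 12 probe sets, of 34945 probe sets and 18193 genes with 1 symbol on the array. NSCs here are neural stem cells obtained from mouse embryonic stem (ES) cells, which divide in medium with EGF and FGF2. The RNA was that of 4 non-irradiated cultures and of 4 cultures harvested at day 7 after 10 Gy of X-rays (irr), all in that same medium, and was hybridized to Affymetrix mouse whole-genome arrays. The irr cells were kept without passage until harvest. The methods say that NSCs of the E14Tg2a ES background were mostly used in the study, without tying the arrays to a line, and the age at harvest of the non-irradiated cultures was not given in the sources used here.

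ABC proteins use ATP to move substrates across membranes, and members of the A subfamily mostly carry lipids. Abca8a, Abca8b, Abca9, Abca6 and Abca5 form a cluster of neighbouring genes, while Abca2, Abca3 and Abca7 lie on other chromosomes. In brain, Abca2 is known for its place in lysosome-related vesicles and in oligodendrocytes, human ABCA8 has been linked to sphingomyelin production, Abca7 has roles in phagocytosis and lipid efflux, and Abca3 is best known for loading surfactant lipids into the lamellar bodies of lung cells.

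In the mouse genome (GRCm38.p6) the cluster lies on chromosome 11 in the order Abca8b (chr11:109932206-109996274), Abca8a (chr11:110025634-110097580), Abca9 (chr11:110100749-110168274), Abca6 (chr11:110174638-110251776) and Abca5 (chr11:110269369-110337723), over 405518 bp in all. The gap between Abca8a and Abca9 is 3168 bp, that between Abca9 and Abca6 6363 bp, that between Abca6 and Abca5 17592 bp and that between Abca8b and Abca8a 29359 bp. The other 3 genes are at chr2:25428599-25448544 (Abca2), chr17:24351921-24410204 (Abca3) and chr10:79996453-80015572 (Abca7).

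The promoter windows of the 4 cluster genes that were above the detection limit set below are shown so that neighbouring genes that were all higher in irr NSCs can be compared in sequence. Each window runs from 250 bases before to 50 bases after the transcription start used by RefSeq (GRCm38.p6), in the direction of the gene, which is the minus strand for all 4. Capitals mark matches to the motifs searched for on either strand. The windows are chr11:110095888-110096187 for Abca8a, chr11:109995796-109996095 for Abca8b, chr11:110168104-110168403 for Abca9 and chr11:110337667-110337966 for Abca5. Those of Abca8a and Abca8b lie wholly inside the gene ranges given above, so the start used for them is not the outer end of the gene. Whether it is the start in use in NSCs was not tested.
Abca8a: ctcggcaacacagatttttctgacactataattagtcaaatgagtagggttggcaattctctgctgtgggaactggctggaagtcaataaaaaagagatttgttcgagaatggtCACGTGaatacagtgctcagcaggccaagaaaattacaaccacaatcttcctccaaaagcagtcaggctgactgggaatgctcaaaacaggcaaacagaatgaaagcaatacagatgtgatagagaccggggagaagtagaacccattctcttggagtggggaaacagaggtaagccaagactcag
Abca8b: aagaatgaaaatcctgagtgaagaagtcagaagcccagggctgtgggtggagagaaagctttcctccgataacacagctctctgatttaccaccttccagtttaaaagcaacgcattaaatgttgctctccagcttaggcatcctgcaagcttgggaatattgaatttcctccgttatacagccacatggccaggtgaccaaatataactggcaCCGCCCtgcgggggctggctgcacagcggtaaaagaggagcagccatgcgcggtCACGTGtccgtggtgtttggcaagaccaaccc
Abca9: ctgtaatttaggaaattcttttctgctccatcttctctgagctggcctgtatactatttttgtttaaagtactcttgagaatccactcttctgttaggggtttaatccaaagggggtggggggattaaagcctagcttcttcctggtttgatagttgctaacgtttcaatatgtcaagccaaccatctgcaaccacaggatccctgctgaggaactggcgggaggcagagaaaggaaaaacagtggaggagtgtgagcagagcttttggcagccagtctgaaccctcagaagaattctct
Abca5: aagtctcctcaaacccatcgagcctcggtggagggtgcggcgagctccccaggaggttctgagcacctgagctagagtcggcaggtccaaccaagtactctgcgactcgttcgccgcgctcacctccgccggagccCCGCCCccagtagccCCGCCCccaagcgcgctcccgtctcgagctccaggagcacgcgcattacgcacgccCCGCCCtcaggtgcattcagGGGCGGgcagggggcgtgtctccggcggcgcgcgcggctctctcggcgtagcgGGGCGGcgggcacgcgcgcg

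The windows of the cluster genes differ in their content of bases and motifs. The observed over expected ratio of CpG dinucleotides was 0.13 for Abca9, 0.28 for Abca8a, 0.51 for Abca8b and 1.02 for Abca5, against a median of 0.38 over 32851 RefSeq promoter windows. Abca5 thus has a window rich in CpG, with 72.3% G and C, while Abca8a and Abca9 have 44.3% and 45.3%. Of 6 motifs searched on both strands, the E-box CACGTG was found in Abca8a, at position -136, and in Abca8b, at position 19, and in 7.15% of all windows. The GC box GGGCGG was found 5 times in Abca5 and in 5 of the 7 member windows, against 35.7% of all windows. CCAAT was found in Abca7, at positions -99 and -63, and in 37.4% of all windows. The TATA box TATAAA, the STAT element TTCNNNGAA and the forkhead element GTAAACA, found in 13.6%, 8.3% and 3.65% of all windows, were in none of the 7. Of the motifs, none overlaps another in the windows printed here. Positions count from the start, and a match says only that these letters are there. The table lists no window for Abca6.

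Abca8a, whose human counterpart takes part in cholesterol export, had the largest change of the family. Its log2 values were 7.25, 7.33, 7.52 and 7.51 on the non-irradiated arrays and 12.92, 12.98, 12.89 and 13.08 on the irr arrays. The lowest irr array lay 5.37 above the highest non-irradiated array. The means were 7.40 ± 0.13 and 12.97 ± 0.08 (log2, SD, n = 4 each), a difference of 5.57 (standard error, SE, 0.07), or 47.4-fold. Among 21919 probe sets with an intensity over 100 (log2 6.64) on at least 1 array, this increase had rank 5. All 4 non-irradiated arrays were above that intensity, so that the fold is measured on both sides. In RNA from whole cultures, more cells with Abca8a RNA and more of that RNA per cell cannot be told apart.

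Abca8b, the paralog of Abca8a that ends the cluster, was higher too, by less. The non-irradiated arrays had log2 values of 7.05, 7.02, 6.96 and 6.82 and the irr arrays 9.51, 9.51, 9.49 and 9.54. The irr arrays agreed within 0.02 (SD), and no irr array came near the non-irradiated ones. The difference was 2.55 (log2, SE 0.06), or 5.87-fold, at rank 163 of 21919. Abca8a and Abca8b are paralogs, and whether the probes of 1 also bind RNA of the other was not tested.

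Abca9, a cluster gene of little known substrate, had log2 values of 7.12, 7.29, 7.33 and 7.17 without irr and 8.52, 8.44, 8.44 and 8.50 after irr. All irr arrays were above all others, and the difference was 1.25 (log2, SE 0.06), or 2.38-fold. Its second probe set was below an intensity of 100 on all 8 arrays, with means of 5.78 ± 0.10 and 5.65 ± 0.25 (log2, SD, n = 4 each) and groups that overlap. Abca5, which encodes a transporter of lysosomes and late endosomes, had log2 values of 7.55, 7.51, 7.68 and 7.71 without irr and 8.96, 9.04, 8.95 and 9.10 after irr. The groups stood apart by 1.25, and the difference of the means was 1.40 (log2, SE 0.06), or 2.64-fold. The second Abca5 probe set, at 3.71 ± 0.10 and 3.67 ± 0.12 (log2, SD, n = 4 each), was dim on all arrays and its groups overlap. Abca6 has 1 probe set, which stayed below an intensity of 100 on all arrays, at 4.62 ± 0.21 without and 5.03 ± 0.12 after irr (log2, SD, n = 4 each), so that no fold is given for it.

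**Figure D1:**
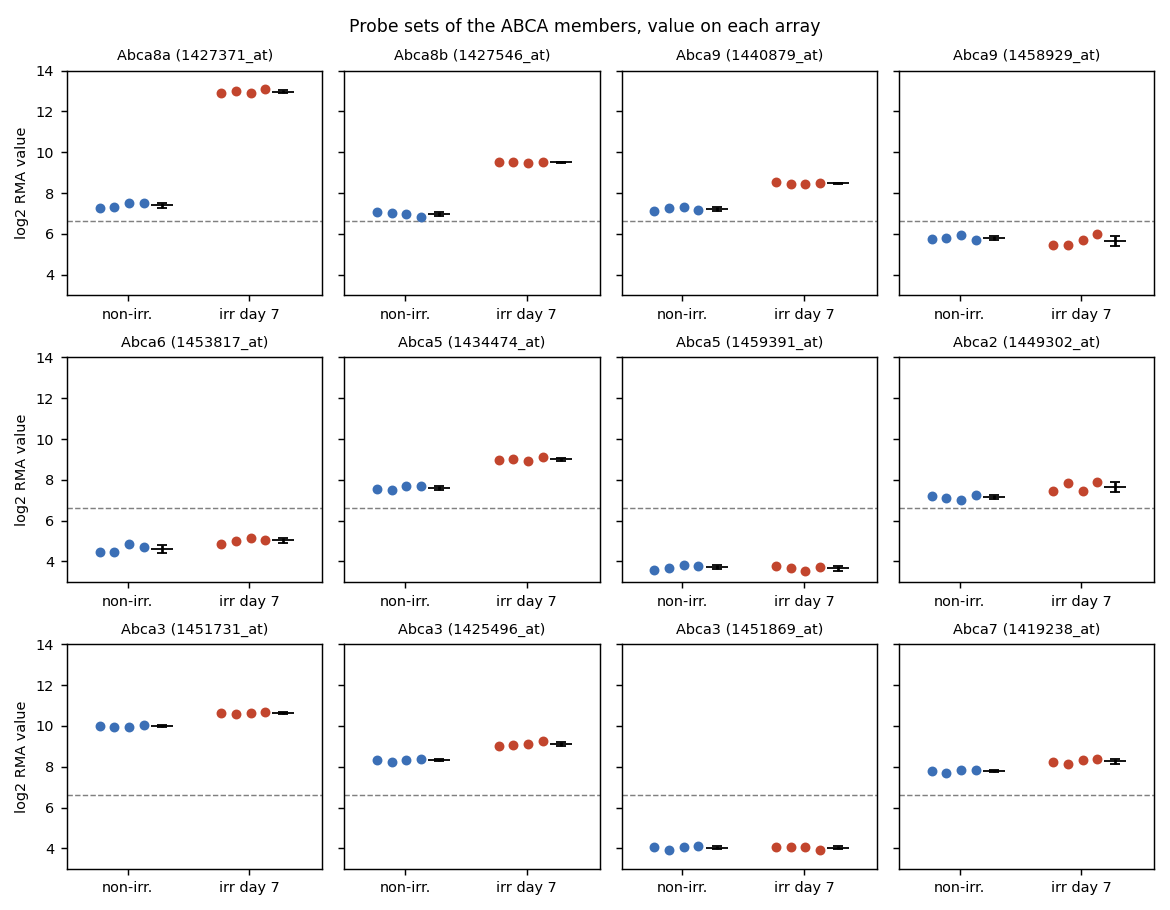
Log2 RMA value of each of the 12 probe sets of the 8 ABCA genes on each array (points; 4 non-irradiated, blue, and 4 irr day 7, red), with mean and SD beside them in black and an intensity of 100 (log2 6.64) as the dashed line. The irr arrays of Abca8a lie between 12.89 and 13.08, against 7.25 to 7.52 without irr, and 4 probe sets, including that of Abca6, stay below the line on all arrays.

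The members outside the cluster differed by less than 2-fold. Abca3 is read by 3 probe sets. The brightest had log2 values of 10.01, 9.97, 9.93 and 10.06 without irr and 10.66, 10.61, 10.62 and 10.67 after irr, a difference of 0.65 (SE 0.04), or 1.57-fold. Another was higher by 0.79 (SE 0.06), and the groups of neither overlap. The third was dim on all arrays, at 4.03 ± 0.08 and 4.04 ± 0.08 (log2, SD, n = 4 each). Abca7 had log2 values of 7.77, 7.70, 7.82 and 7.82 without irr and 8.25, 8.12, 8.31 and 8.37 after irr, so that it differed by 0.48 (SE 0.06), or 1.40-fold, with no overlap.

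Abca2 had the widest spread after irr among the member probe sets past the filter. It had log2 values of 7.20, 7.12, 7.01 and 7.26 without irr and 7.46, 7.87, 7.46 and 7.88 after irr. Irr replicates 1 and 3 lay close to the non-irradiated arrays and irr replicates 2 and 4 lay higher, so that the SD was 0.24 after irr against 0.11 without, and the gap between the groups was 0.20. The difference of the means was 0.52 (log2, SE 0.11), or 1.43-fold.

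In all, 8 of the 12 member probe sets passed the intensity filter, and 4 did not. All 8 that passed, which read 7 of the 8 genes, were called higher in irr NSCs at an adjusted p under 0.05 from limma, where 38.0% of all 21919 probe sets were. At least 2-fold higher were 4, those of Abca8a, Abca8b, Abca9 and Abca5, against 8.47% of all probe sets. In all 8 every irr array was above every non-irradiated array, as was so for 35.7% of all. Among the 4 that did not pass, this held for Abca6, by a gap that rounds to 0.00. As the family was chosen in this contrast, nothing is read from these counts. The order of the changes by brightest probe set, Abca8a, Abca8b, Abca5, Abca9, Abca3, Abca2 and Abca7, had wide steps at the top and narrow ones below. Abca5 and Abca9 differed by 0.14 on average over the arrays (root mean square of log2 values relative to the non-irradiated mean), Abca3 and Abca7 by 0.14 and Abca2 and Abca7 by 0.19, while Abca8a and Abca8b differed by 2.14. Set against their standard errors, Abca5 and Abca9 lie close. The place of Abca2 between Abca3 and Abca7 is uncertain, given its spread (SD 0.24 after irr). These differences were not tested.

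**Figure D2:**
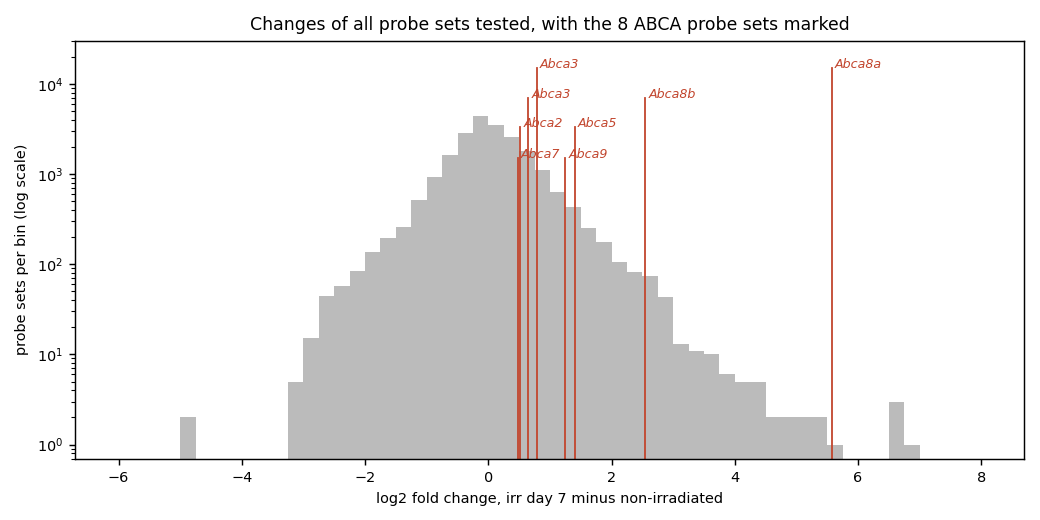
Number of probe sets (log scale) by log2 fold change of irr day 7 against non-irradiated NSCs over 21919 probe sets tested (grey bars, bins of 0.25), with the 8 member probe sets past the filter as red lines whose height only separates the names. Abca8a, at 5.57, lies in the far right tail, Abca8b at 2.55, and the probe sets of Abca7, Abca2 and Abca3 lie between 0.48 and 0.79, inside the bulk.

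The neighbours of the cluster on chromosome 11 went both ways. Of 10 genes listed on either side, 8 were tested, of which 3 were higher, 4 were lower and 1 was not called, with a median log2 fold change of -0.14, against 40.2% higher, 37.1% lower and a median of 0.007 over 11372 genes. Centred on 7 reference genes in place of the RMA scale, 4 were higher and 3 lower. Of these 7 reference genes, 4 were themselves called lower and 1 higher on the RMA scale, with a median of -0.13. The centring moved the median of all probe sets from -0.008 to 0.163. Shares over all genes are not given for it, so nothing is read from counts with this centring, here or below. On the side of Abca8b, Fam20a, a pseudokinase that assists the secretory pathway kinase FAM20C, was at 5.80 ± 0.14 without irr and 7.29 ± 0.03 after irr (log2, SD, n = 4 each). It was at least 1.56-fold higher (limma, adjusted p = 3.9e-08), since no non-irradiated array reached an intensity of 100. Prkar1a, a regulatory subunit of protein kinase A, rose by 0.33 (SE 0.05, limma adjusted p = 1.8e-04). Wipi1, an autophagy protein that binds phosphoinositides, was 3.80-fold higher (log2 1.92, SE 0.04, limma adjusted p = 6.3e-10), in 6 of 6 probe sets.

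On the side of Abca5, Map2k6, a kinase that activates p38, fell by 1.05 (log2, SE 0.08, limma adjusted p = 1.0e-06), with 8.51 ± 0.11 without and 7.46 ± 0.12 after irr (SD, n = 4 each). The potassium channel gene Kcnj16 was at least 1.63-fold lower (limma, adjusted p = 5.1e-06) in its brightest probe set and was called lower in both of its probe sets. Sox9, a transcription factor of glial cells farther along the chromosome, had 9.02 ± 0.09 and 9.02 ± 0.05 (log2, SD, n = 4 each, adjusted p = 1.00 from limma). Farther out on the side of Abca8b, Amz2, a metallopeptidase, fell by 0.28 (SE 0.05, limma adjusted p = 7.5e-04). Slc16a6, a transporter of the monocarboxylate family, fell by 0.70 (SE 0.06, limma adjusted p = 2.5e-06), and only non-irradiated replicate 4 was above an intensity of 100, so the size is uncertain. Arsg, a lysosomal sulfatase, and Kcnj2, another potassium channel, were below the filter on all arrays. With that centring, Amz2 read -0.11 and was no longer called, and Sox9 was called higher at 0.17.

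**Figure D3:**
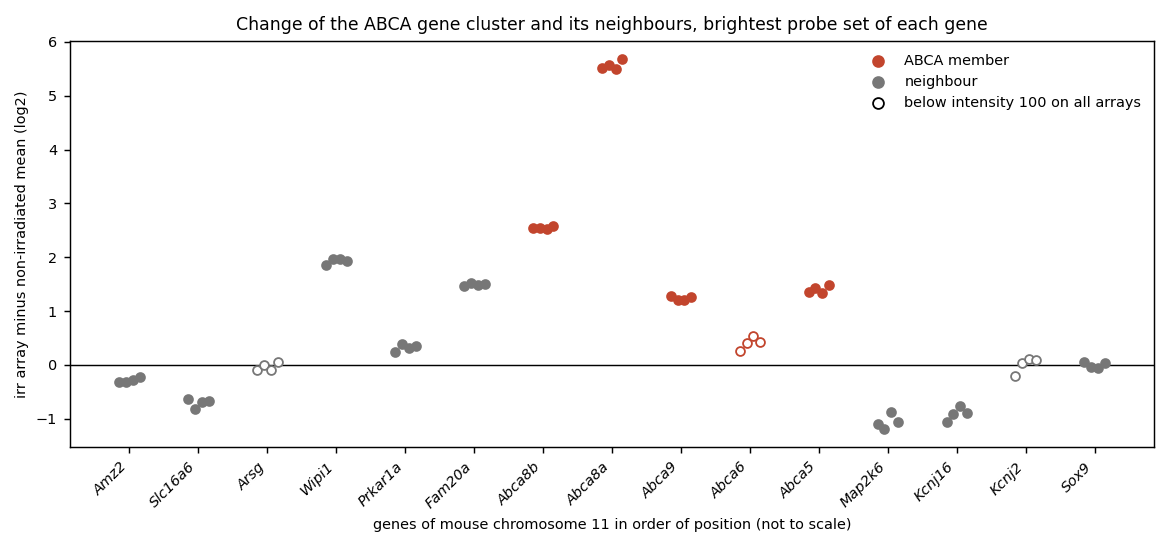
Log2 value of each irr array minus the mean of the 4 non-irradiated arrays (points, 4 for each gene, brightest probe set) for the 5 cluster genes (red) and 10 neighbours (grey) in order along chromosome 11, not to scale. Abca8a (5.57) and Abca8b (2.55) are highest of the genes shown, followed by the neighbour Wipi1 (1.92), while Map2k6 next to Abca5 fell by 1.05; open points were below an intensity of 100 on all 8 arrays.

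Among the other genes of the ABCA subfamily, 6 of 8 have a probe set with 1 symbol and only Abca1 passed the filter. Abca1, which exports cholesterol to lipoproteins, had log2 values of 6.63, 6.84, 6.98 and 6.86 without irr and 12.35, 12.41, 12.18 and 12.30 after irr. Its increase of 5.48 (SE 0.08, limma adjusted p = 1.2e-10) was next below that of Abca8a in the order of all probe sets, at rank 6. Its other probe sets stayed below the filter. Abca4, the retinoid transporter of the retina, was at 6.09 ± 0.08 and 5.47 ± 0.03, Abca12, which acts in skin, at 5.07 ± 0.20 and 5.03 ± 0.06, and Abca13 at 4.03 ± 0.04 and 3.92 ± 0.07 (log2, SD, n = 4 each). Abca14 and Abca16 were below 4 on all arrays. Abca15 and Abca17 were not analysed here.

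Over the ABC superfamily apart from the 8 members, 22 of 40 genes with a probe set were tested, of which 8 were higher, 10 were lower and 4 were not called, with a median log2 fold change of -0.09. That is 36.4% higher and 45.5% lower, near the 40.2% and 37.1% of all genes tested. With the arrays centred on reference genes, 10 were higher and 5 lower, with no share over all genes given for that scale. The highest was Abca1, and only 3 were at least 2-fold higher. In subfamily B, 3 of 8 were higher and 4 were lower, of which only Abcb6 was still lower with the arrays centred on reference genes. Tap1 and Tap2, the peptide transporter of antigen presentation, rose by 1.38 (SE 0.08) and 0.83 (SE 0.08), the drug exporter Abcb1b rose by 0.67 (SE 0.06), and Abcb6, a porphyrin transporter, fell by 0.62 (SE 0.06). The adjusted p of these 4 ran from 1.8e-07 to 5.4e-06 (limma). In subfamily C, 2 of 4 were higher and 1 was lower. Abcc5, an exporter of cyclic nucleotides and other anions, was 4.24-fold higher (log2 2.08, SE 0.07, limma adjusted p = 3.6e-09) and was called higher in 3 of 5 probe sets past the filter. By the mean of its probe sets it was 1.94-fold higher. Abcc12 rose by 0.34 and Abcc4, a related exporter, fell by 0.34 (SE 0.06, limma adjusted p = 4.1e-04).

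Both tested genes of the peroxisomal and lysosomal subfamily D were higher, Abcd4 by 0.43 and Abcd3 by 0.18. In subfamilies E and F, whose proteins act at the ribosome and move no substrate, 3 of 4 were lower. Abce1, a factor of ribosome recycling, fell by 0.52, Abcf2 by 0.50 and Abcf1 by 0.50. In subfamily G, 2 of 3 were lower, the drug exporter Abcg2 by 0.20 (SE 0.04, limma adjusted p = 0.0016) and the sterol transporter gene Abcg8 by 0.23, and both calls ended with the arrays centred on reference genes, at -0.03 and -0.06. Abcg1 was below the filter on all arrays.

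**Figure D4:**
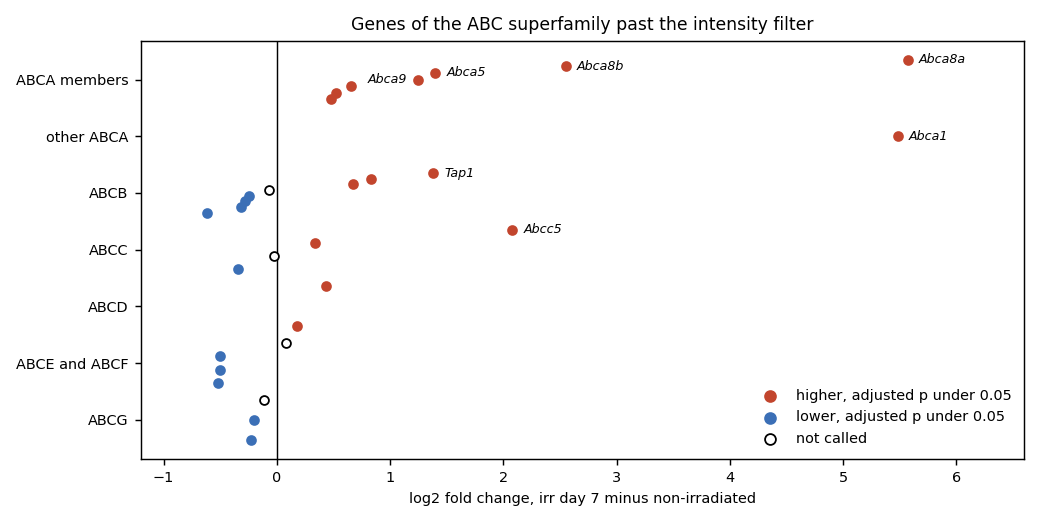
Log2 fold change of irr day 7 against non-irradiated NSCs for each gene of the ABC superfamily past the intensity filter (brightest probe set), by subfamily; red points are higher and blue points lower by limma (adjusted p under 0.05), open points are not called, and the vertical spread only separates points. Abca8a (5.57) and Abca1 (5.48) lie far to the right of the rest, of which the next is Abca8b at 2.55, and genes over 1 are named.

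The genes whose arrays were most like those of Abca8a were found among 10621 genes with a non-irradiated mean over an intensity of 100, by the root mean square difference over the 8 arrays of log2 values relative to each non-irradiated mean. Genes dimmer without irr were left out. Among these was Aqp4, at least 26.1-fold higher and at rank 7 of all probe sets tested. Of the genes compared, Abca1 was nearest, at 0.10. The lipid carrier gene Apoe followed at 0.66, then the matrix metalloproteinase gene Mmp2 at 1.12, the angiotensinogen gene Agt at 1.39 and Hpse, which encodes heparanase, at 1.43. Their increases were 4.64, 4.00, 3.61 and 3.55 (log2). This measure mostly orders genes by the size of their increase, and Abca1 is the only one of the 5 that matched Abca8a to within the spread of the arrays, 0.08 to 0.15 (SD). Abca8b, at 2.14, was farther from Abca8a than any of the 5.

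**Figure D5:**
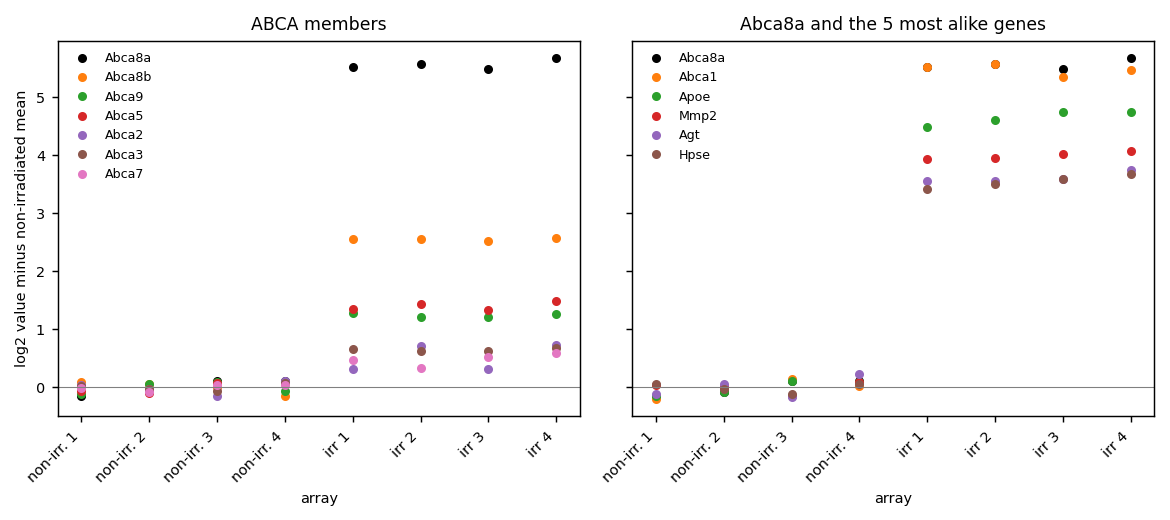
Log2 value minus the mean of the non-irradiated arrays on each of the 8 arrays, for the 7 members past the filter (left) and for Abca8a with the 5 genes most like it (right); each point is 1 array, brightest probe set. Abca8a and Abca1 lie close together on all arrays (root mean square difference 0.10), and Abca2 has irr replicates 2 and 4 above irr replicates 1 and 3.

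Genes of sphingolipids, the lipid class to which Abca2 and human ABCA8 have been linked, were mostly higher. Of 28 tested, 19 were higher (67.9%), 3 were lower and 6 were not called, with a median log2 fold change of 0.58, against 40.2% higher, 37.1% lower and a median of 0.007 over all genes tested. Centred on reference genes, 24 were higher and 1 lower. That centring raised the median of all probe sets to 0.163, and no share over all genes is given for it. Those at least 2-fold higher were 6 by the brightest probe set and 3 by the mean of probe sets, where Sgms1, Smpd1 and Kdsr fell under 2-fold, at 1.94, 1.84 and 1.98. Sgms2, a sphingomyelin synthase, was at least 4.16-fold higher (limma, adjusted p = 5.0e-10), and Sgms1, the synthase of the Golgi, rose by 1.41 (SE 0.07, limma adjusted p = 7.7e-08) with all 4 of its probe sets called higher. Smpd1, the lysosomal sphingomyelinase, rose by 1.44 (SE 0.07), as did Arsa, the lysosomal sulfatidase, by 1.44 (SE 0.07). The last 2 were Kdsr, of ceramide synthesis, and Psap, the precursor of the saposins, both 2.25-fold higher and named after their values were seen. Synthesis and breakdown genes are thus both among the increases. The lower ones were Smpd4, Ugt8a and Gba2, by 0.52, 0.22 and 0.22. Ugt8a, which makes the galactolipid of myelin, had overlapping groups, and with reference centring only Smpd4 was still called lower.

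Genes of surfactant and lamellar bodies, with which Abca3 works in lung, had no called increase on the RMA scale. Of 8 listed, 4 were tested by limma, of which 2 were lower and 0 were higher, against 40.2% higher and 37.1% lower over all genes tested. With 4 genes, nothing particular to the list is read from these counts. At an unadjusted p under 0.05, 3 were lower and 0 higher. Lpcat1, which makes surfactant phospholipid and is also used in other cells, fell by 0.79 (SE 0.09, limma adjusted p = 3.4e-05), and the transcription factor gene Nkx2-1 fell by 0.29 at the edge of the filter. The surfactant protein genes Sftpb, at -0.11, and Sftpc, at 0.07, were not called (adjusted p = 0.052 and 0.50 from limma). Centred on reference genes, Sftpc was called higher at 0.24 and Lpcat1 lower at -0.62.

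Some marker genes of other cell types moved with irr. Fibroblasts are known to express Abca8a, Abca6 and Abca9. The 12 fibroblast markers had summed intensities of 4090 to 4260 on the non-irradiated and 7840 to 8530 on the irr arrays. Without Thy1, the fibroblast sums were 3270 to 3480 and 5110 to 5440. Of 8 tested genes 6 were higher, where 40.2% of all genes tested were, and Fbln1 fell by 0.47 (log2). Col1a1, Col1a2, Pdgfra and Pdgfrb were below the filter on all arrays. The 12 astrocyte markers summed to 24800 to 26200 and 43000 to 46800, with 8 of 11 tested higher and Gfap and Aldoc lower. Among the higher ones, Aqp4 was at least 26.1-fold higher and Slc1a2 rose by 2.74 (log2). Gfap fell by 0.18 (log2) near the filter, with overlapping groups and only 1 of 4 irr arrays over an intensity of 100. With reference centring Gfap read -0.01 and was no longer called, while Aldoc was still lower, at -0.56. The paper reports higher GFAP in irr NSCs by PCR, immunoblot, immunofluorescence and flow cytometry. Without Apoe, the astrocyte sums were 24100 to 25600 and 28900 to 30000. For oligodendrocytes, which express Abca2 and, in human brain, ABCA8, the sums were 8080 to 8750 and 6990 to 8280, of 4 tested genes Ugt8a was called lower and Mbp, Cnp and Sox10 were not called, with none called on reference centring, and Mog, Mag, Mobp, Opalin, Myrf, Cldn11 and Ermn were below the filter. Of 10 microglia and macrophage markers 7 were below the filter, of 10 endothelial ones 8, and of 8 pluripotent ones 5, Pou5f1 and Nanog among them. Summed intensities of the macrophage list were 604 to 674 and 839 to 938, of the endothelial list 527 to 584 and 494 to 515, of the pluripotent list 576 to 616 and 907 to 994, and of the neuron list 7880 to 8900 and 8510 to 9060. The neuron sum was mostly Map2, which was not called. Of 7 neuron markers tested, 2 were higher, Gad1 by at least 3.44-fold and Syt1 by at least 1.61-fold. Another 4 were lower, Nefl by 1.72, Tubb3 by 0.67, Dcx by 0.27 and Rbfox3 by 0.24 (log2). Centred on reference genes, 3 were higher and 2 lower. Without Klf4, the pluripotent sums were 364 to 410 and 333 to 362, and without Cd68 the macrophage sums were 555 to 629 and 605 to 658. All 11 measured neural stem cell markers passed the filter, which takes 1 array over an intensity of 100, and Prom1 passed on 1 irr array only. The 11 summed to 57500 to 59400 without irr and 62600 to 66400 after irr. Much of these sums came from Vim and Fabp7, at 17500 and 20400 without irr. By gene, 4 were higher, 3 were lower and 4 were not called. The higher ones were Notch1 by 0.28, Sox2 by 0.23, Fabp7 by 0.18 and Vim by 0.16 (log2). Pax6 fell by 0.54, Hes5 by 0.63 and Msi1 by 0.17, and Nes, not called by its brightest probe set, was lower in 2 of 3 probe sets. The paper reports lower Nestin, SOX2, PAX6, Musashi-1 and Vimentin mRNA in irr NSCs by PCR. Centred on reference genes, 7 were higher and 2 lower. The part of any of these in the ABCA values was not tested.

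The arrays were alike within groups. Across probe sets, the correlation was 0.996 to 0.998 for arrays of 1 group and 0.972 to 0.976 for arrays of both. The gap between the actin control probe sets of the 3′ end and of the 5′ end was wider in irr NSCs (0.51 ± 0.07 against 0.26 ± 0.03, log2, SD, n = 4 each, two-sided exact permutation p = 0.029, which is the smallest 4 against 4 arrays allow), as was that of the transferrin receptor (0.85 ± 0.24 against 0.35 ± 0.21, p = 0.029 in the same exact test), while that of Gapdh differed little (-0.06 ± 0.03 against -0.08 ± 0.04, p = 0.714 in the same exact test). The part of this in the ABCA values was not tested. Without irr replicates 3 and 4, which the second principal component sets apart from irr replicates 1 and 2, Abca7 differed by 0.41, its lowest value over the settings tried.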

How the data were processed

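RNA of 4 non-irradiated NSC cultures and of 4 cultures at day 7 after 10 Gy was measured on 1 array each, and groups follow the labels. The methods describe biological quadruplicates. The deposited values are log2 expression values, which the authors made from the scanned arrays with GCOS and RMA (background correction, quantile normalization and probe summary), per the submitters' processing notes. Quantile normalization gives all arrays the same distribution, so changes are relative to it. Detection calls were not used. The number of arrays limits the precision.

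Of 45101 probe sets, 34958 had 1 gene symbol, 932 several and 9211 none in the platform annotation, and 34754 symbols were updated by Entrez number to RefSeq (GRCm38.p6). The 64 control probe sets were left out. Where 1 array or more exceeded an intensity of 100, the probe set was fitted with limma (version 3.58.1, R 4.3.3), with Benjamini-Hochberg adjustment over all 21919 and a threshold of 0.05, after a test on simulated data. A gene is read by its brightest probe set. Folds against a group with no array over 100 are lower bounds, set against that intensity. Promoter windows are those of RefSeq, and protein and probe sequences were not used here. Figures were drawn with matplotlib 3.10.9.

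The members and gene lists were chosen with earlier results of these data known. Named are all members, the other ABCA genes, the neighbours on chromosome 11, the 4 called genes of largest change in each other ABC subfamily and in the sphingolipid and surfactant lists, and the 5 genes most like Abca8a. Genes named outside this rule are Abcb8, Abcb9, Abcb10, Abcg1, Kdsr, Psap, Gba2, Smpd4, Ugt8a, Sftpb, Sftpc and the markers. Alternatives were other filters, centring on the array median or on 7 reference genes, limma with trend and robust settings, a replicate block, the mean of probe sets, a 2-fold threshold and leaving out arrays. The reference genes are no fixed standard, since 4 of the 7 were called lower and 1 higher on the RMA scale.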

Additional observations from a re-analysis of the deposited data

Results flagged for a closer look

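In 3 of 96 groups of 4 arrays tested, 1 array lay apart from the other 3 by Dixon's criterion, which chance gives in about 1 in 20 groups, and none of these was an ABCA member. Tap1 read 7.22 on non-irradiated replicate 1 against 7.12 to 7.13 on the others (log2). Abcc12 read 8.12 on non-irradiated replicate 3 against 8.15 on the others. Kcnj2, below an intensity of 100 on all arrays, read 4.39 on non-irradiated replicate 4 against 4.01 to 4.06.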

How the results depend on the processing

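Over 16 settings the log2 differences of the 7 member genes past the filter, a description since the family was chosen on them, were 5.52 to 5.74 for Abca8a, 2.51 to 2.72 for Abca8b, 1.21 to 1.42 for Abca9, 1.37 to 1.57 for Abca5, 0.45 to 0.69 for Abca2, 0.63 to 0.82 for Abca3 and 0.41 to 0.65 for Abca7. At least 2-fold, counts fell to 4 member probe sets, 3 higher and 0 lower other ABC genes and 2 higher and 1 lower neighbours. The other counts fell to 6 higher and 0 lower sphingolipid genes and 0 lower surfactant genes. With no filter, 8 sphingolipid and 4 surfactant genes were lower, and Abca6 was called at 0.41, below an intensity of 100. Centred on reference genes, which moved the median of all probe sets from -0.008 to 0.163, 5 other ABC genes and 1 sphingolipid gene were lower, 1 surfactant gene was higher and 1 lower, and Nkx2-1 (-0.12), Amz2, Abcb8, Abcb9, Abcb10, Abcg2, Abcg8, Ugt8a and Gba2 lost their calls. Sox9, near 0, changed sign with the array median (0.00), reference genes (0.17), the mean of its probe sets (0.08), without irr replicates 3 and 4 (0.01), without irr replicate 2 (0.01) or 3 (0.02), and without non-irradiated replicate 2 (0.04), ran from -0.03 to 0.04 with 1 array left out, and was called only with reference genes. These causes were not tested. Leaving out 1 array gave 8 to 8 higher and 10 to 11 lower other ABC genes, 3 to 4 lower neighbours, 19 to 21 higher sphingolipid genes and 2 to 3 lower surfactant genes.

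Same-numbered arrays deviated together with r of 0.04, 0.38, -0.21 and 0.51, and arrays of unequal number with r of -0.48 to 0.38. Not each array was most like its own number. Whether equal numbers mark pairs cannot be told from these values, and the main fit did not pair them. With a replicate block, 16550 probe sets were called against 16467, 20 sphingolipid genes were higher against 19, and the other counts were the same. Dim probe sets limit what can be said of Abca6 and of the second probe sets of Abca9 and Abca5.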
